A study of Mus musculus with 4 samples.

Results

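The comparison sets the 2 fractions of reprogramming mouse embryonic fibroblasts (MEFs) that were sorted as Klf4-positive against the 2 fractions that were not, so that the pair of interest is 2 of the 4 arrays of the series and the other 2 are its counterpart. In reprogramming, transcription factors are introduced into a specialised cell to bring it to pluripotency. Sorting was done on fixed, permeabilized cells after staining of the proteins, and the RNA of each fraction was read on 1 Affymetrix array. The Klf4-positive pair holds cells positive for Oct4 and Klf4 and negative for the surface protein EpCAM, and cells positive for Oct4, Klf4 and EpCAM. The other pair holds Oct4-negative cells, for which the labels name no Klf4 or EpCAM gate, and cells positive for Oct4 and negative for Klf4, for which they name no EpCAM gate. The members were taken from the gates in the labels and not from any measured level. The labels give no strain, day of sorting, introduced factors or delivery, and leave unsaid whether the Oct4-negative cells grew in the same culture. The 2 arrays of a pair are different gates and not replicates of each other, so no test, standard error or interval is given, and each gene is described by its 4 levels. Because the Klf4-positive fractions are also Oct4-positive while 1 of the 2 others is not, a difference between pairs cannot be told apart from a difference that comes with Oct4 unless the Oct4+Klf4-negative level is read beside it. Differences between bulk fractions also do not separate fewer cells of a type from less RNA per cell.

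Klf4 is a zinc finger transcription factor that binds CACCC and GC-rich elements. It is part of the classical reprogramming cocktail, maintains embryonic stem cells, and in the skin drives the terminal differentiation that builds the water barrier. Fibroblasts that reprogram lose matrix and contractile genes and gain epithelial junctions, a change known as the mesenchymal-to-epithelial transition.

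Levels are log2 values of probe sets as deposited, and 4 levels of a gene are given throughout in 1 order: Oct4-negative, then Oct4+Klf4-negative, then the EpCAM-negative and last the EpCAM+ array of the Klf4-positive pair. Klf4 had levels of 7.32, 6.24, 10.20 and 10.60, so that both Klf4-positive arrays lay above both others and the pair means differed by 3.62 (log2). A second Klf4 probe set ran the other way, with levels of 6.95, 5.69, 2.67 and 3.20, so the transcript does not follow the label at every probe set. Pou5f1, which encodes Oct4, had levels of 7.59, 11.48, 11.66 and 11.70. Its pair means differed by 2.15, but the lower of the Klf4-positive levels was only 1.13-fold above the Oct4+Klf4-negative level, and the difference of means came from the Oct4-negative array. Epcam, the adhesion molecule of the third gate, had levels of 4.63, 5.20, 6.54 and 9.52, with both Klf4-positive arrays above both others.

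The arrays were alike in scale, with medians between 4.49 and 4.55 over all probe sets. Of 18193 named genes, 11428 had at least 1 level at or above a floor of 4.53, which is the median over the whole value table, and these are called measured below. The Gapdh control probe sets, read at both transcript ends as a sign of RNA integrity, differed between the 3′ and 5′ ends by 1.04 and 1.3 in the other pair and by 1.04 and 0.97 in the Klf4-positive pair, and those of Actb by −0.05 to −0.07 on all 4 arrays; their part in the differences was not tested.

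A call, higher or lower, needed 3 things: the lowest level of one pair lay above the highest level of the other, the pair means differed by at least 1 on the log2 scale (2-fold), and at least 1 level was at the floor or above. By this rule 1076 genes were higher in the Klf4-positive pair, 9.42% of the 11428 measured, and 938 were lower, 8.21%. These shares are the background for every list count below. Absence of overlap is common by itself: with no minimum difference, 4264 measured genes (37.3%) had the Klf4-positive pair above and 3241 (28.4%) had it below, while the pairs overlapped in the other 34.3%. The stricter demand that the nearest levels of the pairs lie at least 2-fold apart was met by 643 genes on the higher side (5.63%) and 429 on the lower side (3.75%). At the edge of the rule, Setmar was just inside with levels of 3.64, 4.20, 4.82 and 5.02, and Trim16 just outside with levels of 5.92, 5.09, 6.42 and 6.59. On the lower side, Abat was just inside with levels of 4.74, 5.83, 4.34 and 4.21, and Sdc2 just outside with levels of 8.82, 8.22, 7.67 and 7.37. Across all measured genes the median difference of pair means was 0.06. The median absolute difference was 0.35 between the pair means, 0.17 between the arrays of the Klf4-positive pair and 0.24 between the arrays of the other pair.

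Most called genes differed by less than 2-fold inside each pair, but a smaller share of them than of all measured genes. Of the genes called higher, 679 (63.1%) differed by less than 2-fold between the arrays of both pairs, as did 525 (56.0%) of those called lower. Among all 11428 measured genes, 579 differed by 2-fold or more between the Klf4-positive arrays and 986 between the arrays of the other pair. Where the Klf4-positive arrays differed by 2-fold or more, the EpCAM+ array lay farther from the other pair in most cases: among genes called higher it was above the EpCAM-negative array in 232 and below it in 24, and among genes called lower it was below in 134 and above in 7. At any size, the EpCAM+ level exceeded the EpCAM-negative level in 76.3% of the genes called higher, in 21.9% of those called lower and in 49.5% of all measured genes. The other pair was less one-sided for the higher genes, with 94 of them at least 2-fold above and 66 at least 2-fold below the Oct4-negative level in the Oct4+Klf4-negative array. Of the genes called lower, 201 were at least 2-fold lower in the Oct4+Klf4-negative array than in the Oct4-negative array and 101 at least 2-fold higher.

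**Figure D1:**
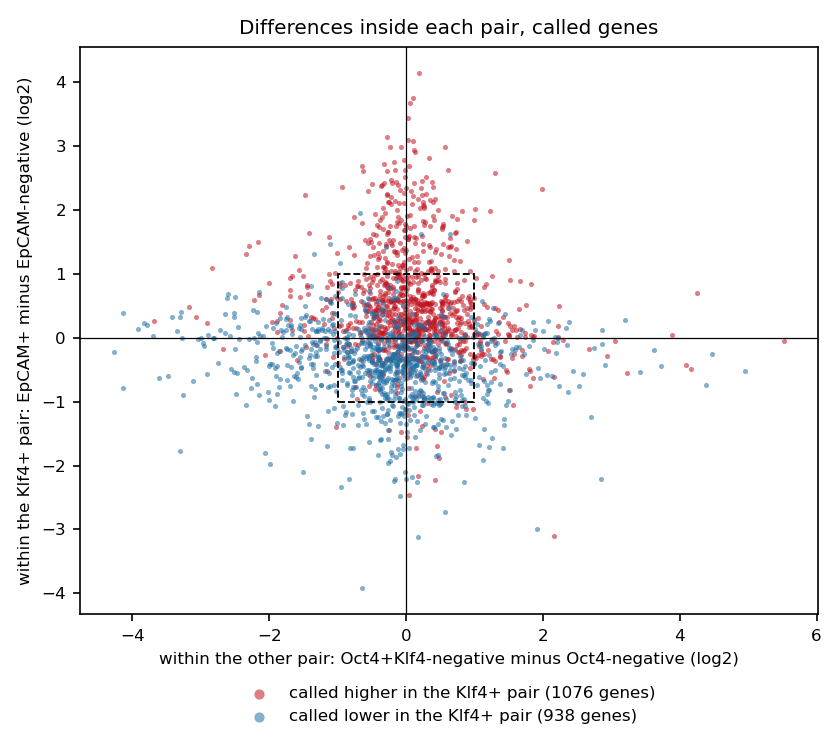
Difference within the Klf4-positive pair (EpCAM+ minus EpCAM-negative, log2) against the difference within the other pair (Oct4+Klf4-negative minus Oct4-negative, log2), 1 point for each of the 1076 genes called higher (red) and the 938 called lower (blue). The dashed square marks differences under 2-fold in both pairs and holds 679 red and 525 blue points; most red points lie above the horizontal line and most blue points below it.

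Among the characterized genes with the largest differences of pair means on the higher side were transporters, enzymes of lipid metabolism, adhesion proteins and developmental regulators. Cyp2s1, a cytochrome P450, had levels of 4.38, 4.90, 10.05 and 10.54 and was 50.6-fold higher by pair means. Fgf4, a growth factor of pluripotent cells, had levels of 2.95, 2.95, 8.28 and 8.73, with both other levels next to background, so no fold is given. Both Klf4-positive levels of each gene stood far above both others, and the levels inside each pair were close. Slc39a8, a zinc and manganese importer, had levels of 2.34, 2.91, 8.43 and 8.35 and was at least 43.8-fold higher, where "at least" marks a fold computed against 2.94, the brightest value seen among 27 bacterial control probe sets whose levels were all under the floor. Cyp4f39, which takes part in the synthesis of barrier lipids of the epidermis, had levels of 4.10, 4.88, 9.73 and 10.34 and was 46.4-fold higher. The other genes steady inside both pairs were Popdc3, a cyclic AMP binding membrane protein, with levels of 2.83, 3.0, 7.98 and 8.42, Fetub, the protease inhibitor fetuin B, with levels of 4.73, 5.36, 9.94 and 10.07, Ceacam10 with levels of 2.55, 3.40, 7.96 and 7.77 and Nccrp1 with levels of 3.71, 3.78, 8.19 and 9.02. In these 4 genes too, the lowest Klf4-positive level was at least 20.8-fold above the highest other level.

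Further genes with large differences varied inside a pair. Hbb-y, an embryonic beta-like globin, had the largest difference among the characterized genes, with levels of 2.0, 2.73, 8.95 and 7.86; its EpCAM+ level was the lower of the Klf4-positive pair, and all 3 of its probe sets, each higher in the Klf4-positive pair, are of kinds that can read several transcripts. Alox12b, an epidermal lipoxygenase of the barrier, had levels of 2.87, 4.86, 7.92 and 10.25, higher at each step of that order. Lama3, a chain of the laminin under epithelial cells, with levels of 3.20, 4.86, 9.11 and 9.56, and Aqp3, the glycerol and water channel of keratinocytes, with levels of 4.6, 6.35, 10.45 and 10.96, were already higher in the Oct4+Klf4-negative array than in the Oct4-negative one. Atp2a3, a calcium pump of the endoplasmic reticulum, had levels of 3.76, 5.32, 9.63 and 9.76, and Sox1, a neural transcription factor, levels of 2.9, 5.05, 9.10 and 9.03. These 2 genes showed the same order, with a partial difference at the Oct4 gate and nearly equal levels in the Klf4-positive pair. Pkp1, a plakophilin of desmosomes, had levels of 4.32, 4.43, 9.05 and 10.24, and the 2 Klf4-positive arrays themselves differed by 1.19.

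Cav1 and Fbn2 led the lower side. Cav1, the coat protein of caveolae, had levels of 9.69, 8.53, 4.99 and 3.30 and was 31.3-fold lower by pair means. Fbn2, a fibrillin of elastic fibres, had levels of 10.22, 10.64, 5.97 and 4.95 and was 31.3-fold lower. Cyp1b1, a cytochrome P450 of mesenchymal tissue, had levels of 9.17, 7.72, 4.22 and 3.0. In each of these the EpCAM+ array was at least 2-fold below the EpCAM-negative array. Loxl1, a crosslinker of elastin, had levels of 10.17, 7.61, 4.41 and 3.92, and Col1a2, a chain of collagen I, levels of 11.41, 9.16, 6.11 and 5.33; both were also more than 2-fold lower in the Oct4+Klf4-negative array than in the Oct4-negative one. Ptx3, a soluble pattern recognition protein, was highest in the Oct4+Klf4-negative array, with levels of 7.33, 9.70, 4.51 and 3.66. Serpinf1, a secreted inhibitor of vessel growth, had levels of 10.12, 8.78, 5.62 and 4.69.

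A further group was lower with less than 2-fold between the arrays of either pair. Sfrp2, a secreted modulator of Wnt signalling, had levels of 8.78, 7.99, 3.87 and 3.04 and was 30.5-fold lower. Slit2, a guidance cue for axons and migrating cells, had levels of 8.79, 8.41, 4.25 and 3.72 and was 24.5-fold lower. Csf1, the growth factor of macrophages, had levels of 8.95, 8.68, 4.75 and 3.88 and was 22.6-fold lower. In all of these the 2 other arrays were high and the 2 Klf4-positive arrays near or below the floor. The heparin-binding growth factor gene Ptn had levels of 9.30, 8.68, 4.94 and 4.17, and Pdgfc, a ligand of the platelet-derived growth factor receptors, levels of 8.98, 9.45, 5.61 and 5.05. Arhgap29 had levels of 7.95, 7.45, 4.02 and 3.64. Thbs2, a thrombospondin, with levels of 7.05, 6.09, 2.82 and 3.10, and Osr1, a transcription factor of mesenchyme, with levels of 7.15, 6.29, 3.10 and 3.12, completed this group, and in both the 2 Klf4-positive levels differed by at most 0.28. Fabp4, a fatty acid carrier best known from adipocytes, had levels of 8.32, 7.15, 3.30 and 3.17. The probe set used can read several transcripts, as can a second one with levels of 8.01, 6.17, 3.55 and 3.77. The 2 Fabp4 probe sets without that property were below the floor on every array, with differences of −0.11 and 0.06.

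**Figure D2:**
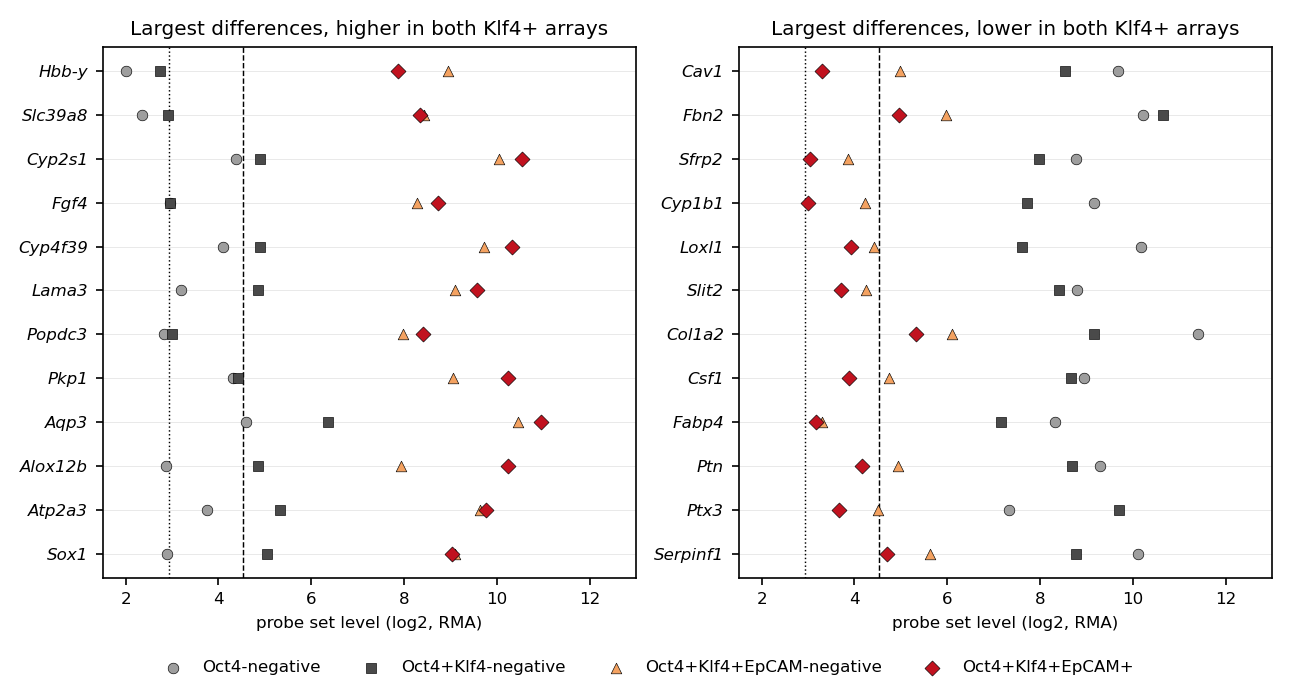
Levels (log2, x axis) of the 12 characterized genes with the largest difference of pair means in each direction, 1 marker for each array; the dashed line is the floor (4.53) and the dotted line the background ceiling (2.94). In each gene the 2 Klf4-positive markers (orange and red) lie on one side of the 2 other markers (light and dark grey), and the gap is narrowest for Ptx3, where the nearest levels are 7.33 and 4.51.

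Because the sorted factor binds CACCC, the 250 bases before each gene's start were read from RefSeq (build GRCm38.p6) for 3 motifs on either strand: CACCC, the core of the KLF element, CATTCC, the TEAD element, and TGANTCA, the AP-1 element. Promoters were found for 815 of the 1076 genes called higher, 739 of the 938 called lower and 9274 of the 11428 measured. At least 1 CACCC was present in 66.1% of the 1124 promoters of genes called higher, in 65.0% of the 1002 promoters of genes called lower, in 58.3% of the 11889 promoters of measured genes and in 52.0% of all 32851 promoters in the table. The share was thus nearly the same on both sides of the comparison. Median GC contents of these 4 sets were 59.2%, 60.4%, 60.0% and 52.4%. The TEAD element was present in 11.8%, 13.3%, 10.5% and 12.6% of them in the same order, and the AP-1 element in 6.23%, 4.79%, 4.41% and 6.75%. A match is a stretch of letters and no evidence that a factor binds there. The promoters below are those with the most matches among the named called genes in each direction. Genes of 1 chromosome were left out of this choice, and ties were taken in order of gene name. Sequences are printed on the gene's strand with every match in capitals, and neighbouring or overlapping matches run together. In the higher group, Atp2a3 (chr11:72960919-72961168, + strand), Cldn3 (chr5:134985964-134986213, + strand) and Klf3 (chr5:64803271-64803520, + strand) each hold 5 matches of CACCC or its reverse complement.
Atp2a3: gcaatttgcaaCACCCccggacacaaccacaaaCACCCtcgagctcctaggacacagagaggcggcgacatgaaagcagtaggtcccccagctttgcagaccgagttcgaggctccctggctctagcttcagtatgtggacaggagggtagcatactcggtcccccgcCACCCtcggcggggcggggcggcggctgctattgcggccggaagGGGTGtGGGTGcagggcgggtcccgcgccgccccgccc
Cldn3: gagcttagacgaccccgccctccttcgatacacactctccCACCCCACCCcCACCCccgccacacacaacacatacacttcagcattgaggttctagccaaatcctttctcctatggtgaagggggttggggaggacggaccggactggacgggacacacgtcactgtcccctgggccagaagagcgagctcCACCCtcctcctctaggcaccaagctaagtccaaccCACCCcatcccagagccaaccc
Klf3: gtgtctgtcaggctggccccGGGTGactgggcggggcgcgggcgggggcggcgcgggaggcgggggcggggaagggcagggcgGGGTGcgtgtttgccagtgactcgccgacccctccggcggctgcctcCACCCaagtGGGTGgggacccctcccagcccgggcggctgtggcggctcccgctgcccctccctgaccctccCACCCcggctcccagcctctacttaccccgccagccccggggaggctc
In the lower group, F3 (chr3:121723287-121723536, + strand) holds 3 matches of the KLF core and 2 of the AP-1 element, one of each sharing bases. Hoxa13 (chr6:52260881-52261130, − strand) holds 4 of the KLF core. Zeb2 (chr2:45110278-45110527, − strand) holds 1 of the KLF core, 1 of the TEAD element and 2 of the AP-1 element.
F3: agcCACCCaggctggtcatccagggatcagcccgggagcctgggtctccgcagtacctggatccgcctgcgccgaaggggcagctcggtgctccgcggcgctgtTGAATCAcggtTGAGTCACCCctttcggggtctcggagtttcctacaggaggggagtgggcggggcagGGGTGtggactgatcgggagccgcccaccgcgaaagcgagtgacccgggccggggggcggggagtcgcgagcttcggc
Hoxa13: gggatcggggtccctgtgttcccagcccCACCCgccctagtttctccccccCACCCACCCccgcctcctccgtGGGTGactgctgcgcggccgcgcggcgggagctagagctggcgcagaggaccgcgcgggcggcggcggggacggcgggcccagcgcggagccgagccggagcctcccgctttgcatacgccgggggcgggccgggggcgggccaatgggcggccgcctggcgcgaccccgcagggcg
Zeb2: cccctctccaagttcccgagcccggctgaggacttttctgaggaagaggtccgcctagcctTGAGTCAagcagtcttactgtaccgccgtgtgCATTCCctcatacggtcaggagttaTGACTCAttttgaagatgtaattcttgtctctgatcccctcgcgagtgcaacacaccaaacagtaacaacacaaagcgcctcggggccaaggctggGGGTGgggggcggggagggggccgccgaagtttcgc

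Klf4 was not the only member of its family that separated the pairs. Of 12 measured Klf genes, 6 were called higher and 1 lower, against 9.42% and 8.21% of all measured genes. The 6 include Klf4 itself, by the brighter of its 2 probe sets. Klf3, a repressor that competes for CACCC sites, had levels of 9.09, 7.59, 10.84 and 11.05, Klf12 of 4.27, 4.89, 6.61 and 7.08 and Klf13 of 7.0, 6.52, 8.47 and 8.51. Klf16 and Klf10 followed with differences of 1.3 and 1.22. Klf3, Klf10, Klf13 and Klf16 were lowest in the Oct4+Klf4-negative array, below the Oct4-negative one. Klf6 was lower, with levels of 9.66, 8.37, 7.57 and 7.83. Klf2 and Klf5, which act beside Klf4 in embryonic stem cells, did not pass, with differences of −0.32 and −0.03, and the pairs overlapped for both.

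Most measured members of the epithelial lists were higher in both Klf4-positive arrays, and the named ones were mostly higher again in the EpCAM+ array. Of 15 measured keratins, the intermediate filaments of epithelia, 10 were called higher and 0 lower, with a median difference of 2.24 against 0.06 over all measured genes. Krt8, a keratin of simple epithelia, had levels of 5.53, 5.94, 9.50 and 11.34, and Krt14, a keratin of basal epidermis, levels of 4.06, 3.96, 7.05 and 8.85. Krt16, a keratin of activated epidermis, had levels of 4.70, 4.99, 7.90 and 10.14 and Krt6b levels of 2.70, 2.14, 5.84 and 8.13. The 2 Klf4-positive levels of each stood above both others and 1.80 to 2.29 apart. Krt13, a keratin of mucosal epithelia, had levels of 3.69, 4.72, 7.83 and 8.76. The basal keratin Krt5 and the suprabasal keratin Krt10 had differences of −0.13 and −0.15, while Krt18, the partner of Krt8, had levels of 6.99, 5.10, 5.11 and 7.11, with overlapping pairs. Leaving out the EpCAM+ array lowered the keratin median to 1.64, and leaving out the EpCAM-negative array raised it to 3.14.

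Junction and polarity genes had 15 of 20 measured members higher, Epcam itself among them, and 0 lower, with a median difference of 1.89, or 1.12 without the EpCAM+ array and 2.76 without the EpCAM-negative array. Cdh1, the adhesion molecule E-cadherin, had levels of 3.39, 4.40, 7.65 and 9.66, and Crb3, a determinant of the apical membrane, levels of 3.88, 4.34, 7.4 and 9.40. The 2 other Crb3 probe sets had levels of 4.31, 4.17, 4.84 and 6.39 and of 5.02, 4.86, 5.27 and 6.06. In those the EpCAM-negative array was less than 2-fold above the other pair. The claudin gene Cldn3, a component of tight junctions, had levels of 4.03, 4.50, 7.64 and 8.61, and Marveld3 levels of 2.61, 2.61, 5.09 and 7.44. By the brightest probe sets of these 4 genes, the EpCAM-negative array was already at least 2-fold above the other pair and the EpCAM+ array higher still. Rab25, a regulator of epithelial recycling endosomes, and Cldn7, a claudin that binds EpCAM, differed from these. Their levels were 3.83, 4.02, 4.81 and 8.95 and 2.76, 2.86, 3.35 and 7.10, so the EpCAM+ array carried nearly the whole difference. Tjp1, a scaffold of tight junctions also present in fibroblasts, had levels of 9.06, 9.23, 9.72 and 9.48, which did not differ by 2-fold.

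Regulators of the epithelial state and epithelial membrane proteases gave 12 higher and 0 lower genes of 13 measured (median difference 2.07). Esrp1, which sets epithelial splicing, had levels of 4.10, 4.06, 5.97 and 8.75. The transcription factor genes Grhl1 and Grhl2, activators of junction genes, had levels of 3.46, 3.57, 5.92 and 7.50 and of 3.58, 4.20, 5.53 and 8.16. Tmprss4, a membrane protease, had levels of 2.55, 2.58, 4.75 and 8.18. The EpCAM+ array was the highest for each, and without it the count fell to 8 and the median to 1.64. Zfp750, a regulator of epidermal differentiation, had levels of 5.46, 4.99, 7.09 and 7.50, with the Klf4-positive arrays close to each other. Esrp2, a relative of Esrp1, had levels of 8.27, 8.64, 8.31 and 8.33 with overlapping pairs by its brightest probe set, of a kind that can read several transcripts. Its other probe set had levels of 5.82, 6.24, 7.52 and 8.91, with both Klf4-positive arrays above both others and a difference of 2.18. Trp63, the master regulator of stratified epithelium, was under the floor throughout, as were Ovol2, Ehf and Prss8.

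Desmosomes and hemidesmosomes, which anchor keratins at cell contacts and at the basement membrane, gave 11 higher and 1 lower gene of 16 measured (median difference 2.41, or 1.63 without the EpCAM+ array). Besides Pkp1 and Lama3, the desmosomal cadherins Dsc2 and Dsc3 had levels of 2.44, 2.32, 6.18 and 8.06 and of 2.94, 3.36, 5.90 and 8.08. Itgb4, the integrin of hemidesmosomes, had levels of 5.15, 5.32, 8.89 and 9.13, and Dsp, which links desmosomes to keratin, levels of 7.23, 6.69, 9.95 and 10.78. In Itgb4 the Klf4-positive arrays differed by only 0.25. The exception was Pkp2, a plakophilin also found in heart and simple epithelia, with levels of 7.81, 8.46, 5.79 and 7.42. Its pairs were separated by 0.39, and the EpCAM-negative array was the lowest.

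Of 18 measured genes of the epidermal barrier, the cornified outer layer of skin, 14 were called higher and 0 lower (median difference 2.29, or 1.31 without the EpCAM+ array). Krtdap, a secreted protein of differentiating keratinocytes, had levels of 6.22, 7.15, 11.30 and 11.75 and was 28.5-fold higher. Dmkn, another secreted epidermal protein, had levels of 3.99, 3.60, 6.55 and 8.29, Cnfn levels of 4.64, 4.61, 7.24 and 8.93 and the crosslinking enzyme gene Tgm3 levels of 4.51, 4.89, 7.56 and 8.59. All 4 genes were higher in both Klf4-positive arrays, and Krtdap was the most even across them. Asprv1, a protease that processes filaggrin, had levels of 3.72, 3.84, 4.95 and 7.38, with more of its difference in the EpCAM+ array. Other barrier members did not follow: Ivl, the envelope protein involucrin, had a difference of −0.16, and Flg, Cdsn and Casp14 were below the floor on every array. The summed level of the 26 barrier genes (log2 of the summed linear levels) was 9.34 and 9.47 in the other pair and 12.26 and 13.21 in the Klf4-positive pair. The part of keratinocytes among the sorted cells was not tested.

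Of 13 measured genes of early or broad pluripotency, 8 were called higher and 0 lower (median difference 1.23). The 8 include Pou5f1, whose protein Oct4 was itself used in the sort. The other 5 did not pass, 3 of them with overlapping pairs, and 6 of the 19 on the array were below the floor. Besides Fgf4 and Pou5f1, L1td1, an RNA-binding protein of stem cells, had levels of 3.44, 4.96, 8.93 and 9.11, and Sall4, a zinc finger partner of Oct4, levels of 3.11, 3.53, 7.18 and 8.53. Lin28a, which blocks maturation of let-7 microRNAs, had levels of 2.95, 2.62, 5.11 and 6.81. Sall4 and Lin28a were below the floor in both other arrays, and L1td1 had an intermediate level in the Oct4+Klf4-negative array. Trim71 and Utf1 had smaller differences of 1.44 and 1.23. Alpl, the alkaline phosphatase used as an early reprogramming marker, was highest in the Oct4+Klf4-negative array, with levels of 4.68, 8.08, 6.83 and 7.15. Of 18 genes of late or naive pluripotency only 5 were measured, 1 higher and 1 lower (median difference 0.44, or −0.22 without the EpCAM+ array). Nr0b1, a nuclear receptor of embryonic stem cells, had levels of 2.41, 2.69, 6.29 and 6.17 and was at least 9.77-fold higher. Tet1, which oxidizes methylcytosine, was lower, with levels of 5.34, 6.33, 3.78 and 3.36, while its relative Tet2 was higher, with levels of 7.14, 8.07, 9.30 and 9.86. Nanog, Sox2, Esrrb, Zfp42 and Dppa3 were below the floor on all 4 arrays.

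Of 9 measured trophoblast regulators, 4 were called higher and 1 lower, against 9.42% and 8.21% of all measured genes. Their median difference was 0.77, or 0.22 without the Oct4+Klf4-negative array and 1.35 without the Oct4-negative array. The transcription factor genes Tfap2c, Hand1 and Tead4 had levels of 3.39, 3.19, 5.81 and 7.34, of 4.69, 4.95, 7.68 and 8.21 and of 5.80, 5.63, 8.18 and 8.77. Ascl2, needed for the spongiotrophoblast, had levels of 4.86, 5.10, 5.93 and 6.60. Fgfr2, the receptor for the fibroblast growth factors that sustain trophoblast stem cells, was lower with levels of 6.87, 4.69, 3.56 and 2.83. The defining factors Cdx2 and Eomes and the placental gene Tpbpa were below the floor throughout. The summed level of the 15 genes on the array was 9.59 and 8.87 in the other pair and 10.16 and 10.68 in the Klf4-positive pair. The part of trophoblast-type cells was not tested.

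**Figure D3:**
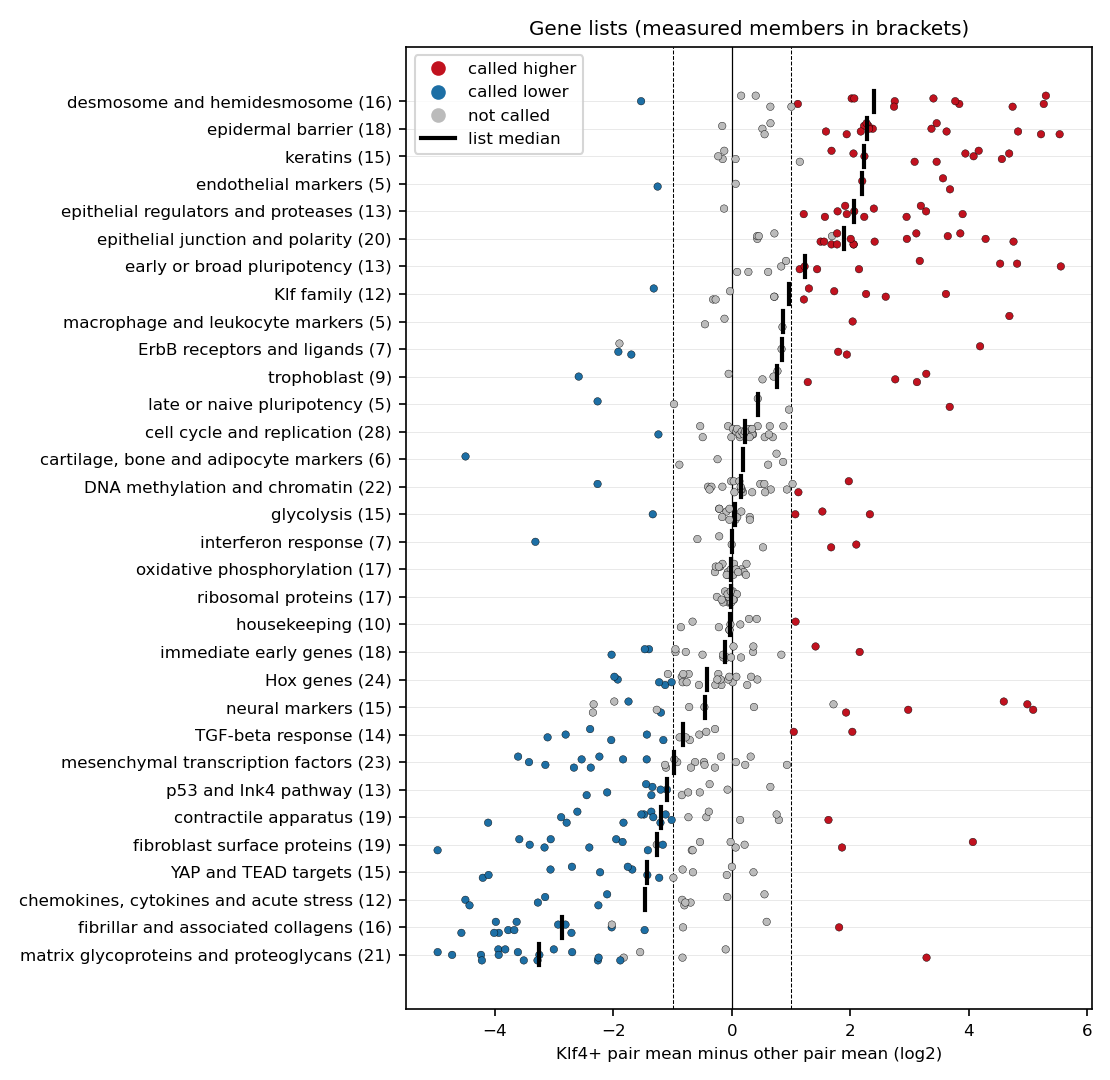
Difference of pair means (Klf4-positive minus other, log2, x axis) for the measured members of the 32 gene lists with at least 5 of them, 1 point per gene, red where called higher, blue where called lower and grey where not called; the black bar is the list's median. The 5 epithelial lists lie near the top with medians of 1.89 to 2.41, and the endothelial list (5 measured members) lies among them with a median of 2.20. Matrix lists lie at the bottom with medians of −2.87 and −3.25, while ribosomal proteins and oxidative phosphorylation genes lie between −0.28 and 0.25.

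Collagens were mostly lower. Of 16 measured collagen genes, 12 were called lower and 1 higher, with a median difference of −2.87. Col1a1 and Col3a1, of the fibrils of skin and tendon, had levels of 11.33, 8.06, 6.15 and 5.26 and of 11.14, 11.13, 8.51 and 6.41. Col8a1 had levels of 8.53, 9.96, 5.92 and 4.55 and Col11a1 levels of 6.04, 7.05, 2.55 and 2.68. The 2 Klf4-positive levels of each were below both others, but the patterns inside the other pair differed: Col1a1 was much lower in the Oct4+Klf4-negative array than in the Oct4-negative one, Col3a1 was equal in them, and Col8a1 and Col11a1 were higher. Col15a1, a collagen of basement membrane zones, was the member called higher, with levels of 3.73, 4.21, 6.73 and 4.84; it was no longer called without the EpCAM-negative array. The collagen VI genes Col6a1 and Col6a3 had levels of 9.30, 5.41, 6.56 and 6.50 and of 6.93, 3.51, 6.66 and 4.95. Their pairs overlapped, and the lowest of the 4 levels was that of the Oct4+Klf4-negative array.

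Among 21 measured matrix glycoproteins and proteoglycans, 16 were lower and 1 higher, with the lowest median of the lists, −3.25. Efemp1, a fibulin, had levels of 9.48, 9.65, 6.89 and 3.77, and Postn, the matricellular protein periostin, levels of 7.76, 10.61, 6.07 and 3.86. Mgp, an inhibitor of calcification, had levels of 11.25, 7.11, 5.63 and 4.84 and Tnc, tenascin C, levels of 8.64, 6.31, 4.18 and 3.12. Thbs1, a thrombospondin, had levels of 8.17, 9.31, 5.52 and 4.09. Postn and Thbs1 were highest in the Oct4+Klf4-negative array and Mgp and Tnc in the Oct4-negative array, yet the Klf4-positive arrays were the lowest in all of them. Dcn, the collagen-binding proteoglycan decorin, went the other way with levels of 6.76, 8.62, 10.97 and 10.98 and was 9.78-fold higher. Eln, the elastin gene, with levels of 7.70, 4.35, 4.41 and 4.55, and Fbln2, with levels of 7.17, 3.83, 3.52 and 3.83, were high in the Oct4-negative array alone, so their pairs overlapped despite differences of −1.55 and −1.82.

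In the contractile apparatus, 12 of the 19 genes measured were lower and 1 was higher (median difference −1.20). Acta2, smooth muscle actin, had levels of 10.40, 8.48, 5.86 and 4.79, and Tagln, transgelin, levels of 9.16, 7.79, 5.52 and 5.66. Myl9, a myosin light chain, had levels of 7.90, 6.34, 4.25 and 4.41 and Cnn2, a calponin, levels of 9.98, 9.86, 7.31 and 7.32. Tagln, Myl9 and Cnn2 were equal to within 0.16 in the Klf4-positive pair. Mylk, the kinase that activates myosin, was higher, with levels of 6.81, 4.80, 7.01 and 7.87. The non-muscle myosin Myh9 had a difference of −0.39 by its brightest probe set, and its other probe sets had differences from −0.37 to −1.35. Targets of YAP and TEAD, which respond to tension and spreading, gave 9 lower and 0 higher genes of 15 measured (median difference −1.43). Ccn1 and Ccn2, secreted matricellular proteins, had levels of 10.66, 9.95, 6.79 and 5.41 and of 8.33, 7.45, 4.37 and 3.20. Dlc1 had levels of 7.41, 7.35, 4.86 and 3.78, and Amotl2, a feedback inhibitor of YAP, levels of 7.68, 7.75, 5.50 and 5.49. The coagulation receptor F3 had levels of 7.06, 3.27, 2.37 and 2.57, and most of its difference lay between the Oct4-negative array and the rest. Lats2, a kinase that inhibits YAP, had levels of 7.80, 7.77, 7.68 and 7.73, nearly the same on all arrays, and Tead4 was higher as given above.

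For mesenchymal transcription factors the counts were 9 lower and 0 higher of 23 measured (median difference −0.97). Zeb1 and Zeb2, repressors of Cdh1, had levels of 8.63, 7.99, 7.12 and 3.20 and of 6.21, 8.13, 5.24 and 2.25. Osr2, a relative of Osr1, had levels of 7.90, 6.06, 4.16 and 4.46. Both Zeb genes had their lowest level in the EpCAM+ array, 3.92 (Zeb1) and 3.0 (Zeb2) below the EpCAM-negative level on the log2 scale, whereas Osr1 and Osr2 did not differ by 2-fold between them. Twist1 had levels of 8.48, 7.56, 6.47 and 5.10 and Foxc1 levels of 8.17, 6.76, 4.95 and 5.22. Snai1 and Snai2, further repressors of Cdh1, had levels of 5.74, 2.97, 3.20 and 3.29 and of 8.70, 7.91, 8.04 and 6.31; the pairs overlapped for both. Prrx1, a marker of limb mesenchyme, had levels of 9.76, 8.78, 8.98 and 8.32 with overlapping pairs. Without the Oct4+Klf4-negative array 15 members were lower instead of 9.

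Surface proteins of fibroblasts gave 10 lower and 2 higher genes of 19 measured (median difference −1.27). Thy1, a standard marker of fibroblasts in reprogramming, had levels of 8.38, 9.81, 6.57 and 5.30, and Cdh2, N-cadherin, levels of 8.62, 8.39, 6.41 and 4.49. Itga8, an integrin of mesenchyme, had levels of 6.68, 9.38, 5.06 and 3.82 and the collagen receptor integrin Itga1 levels of 4.37, 8.75, 3.52 and 2.77. Thy1, Itga8 and Itga1 were highest in the Oct4+Klf4-negative array. Vim, the intermediate filament vimentin, had levels of 12.15, 12.06, 11.50 and 9.02, so most of its difference lay in the EpCAM+ array. Itgb3, a vitronectin receptor chain, was higher with levels of 4.59, 3.46, 5.39 and 6.38. Nt5e, the ecto-enzyme CD73, had levels of 4.72, 4.92, 8.88 and 8.91 by its brightest probe set. Its 2 other probe sets gave differences of 4.08 and −0.05. The hyaluronan receptor Cd44 had levels of 9.94, 9.23, 9.93 and 9.68 with overlapping pairs.

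Signalling genes of the TGF-beta family, which maintain the mesenchymal state, gave 6 lower and 2 higher genes of 14 measured, against 8.21% and 9.42% of all measured genes. Their median difference was −0.83, or −0.41 without the Oct4-negative array. Tgfbi, a matrix target, had levels of 8.0, 7.59, 5.30 and 4.06, and Tgfbr1, the type I receptor, levels of 6.84, 7.65, 6.29 and 5.33. Inhba, which forms activin A, and Ltbp2, a latent TGF-beta binding protein, had levels of 8.33, 4.41, 3.50 and 3.63 and of 7.35, 3.65, 3.45 and 3.48. These last 2 were high in the Oct4-negative array alone, and without that array 3 members were lower, against 9 without the Oct4+Klf4-negative array. Inhbb, which forms activin B, was higher with levels of 6.48, 3.57, 6.94 and 7.18, lowest in the Oct4+Klf4-negative array. Chemokine, cytokine and acute stress genes gave 6 lower and 0 higher genes of 12 measured (median difference −1.47). Ccl7 and Cxcl1, chemokines for monocytes and neutrophils, had levels of 7.91, 5.31, 3.0 and 3.68 and of 10.24, 8.01, 5.98 and 5.97, and Cxcl12, a stromal chemokine, levels of 6.15, 4.25, 3.39 and 2.8. The Oct4-negative array was the highest for each. Without it 4 members were lower and the median was −0.27, and without the Oct4+Klf4-negative array 10 were lower and the median was −3.03.

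In the p53 and Ink4 pathway, which limits proliferation and reprogramming, 7 of 13 measured members were lower and 0 higher (median difference −1.09). Cdkn2c, an inhibitor of Cdk4 and Cdk6, had levels of 7.01, 7.10, 5.07 and 4.14, and Fas, a death receptor, levels of 7.13, 6.92, 5.45 and 4.40. Cdkn2a and Cdkn2b, which encode the Ink4 and Arf proteins, had levels of 8.46, 7.41, 6.71 and 6.48 and of 9.14, 7.95, 7.10 and 7.09. Mdm2, the ligase that removes p53, had levels of 11.32, 10.78, 10.20 and 9.71. The levels of these 5 genes were lower along the order of the gates, except that Cdkn2c was slightly higher in the Oct4+Klf4-negative than in the Oct4-negative array. Cdkn1a, the main cell cycle target of p53, was level across the arrays at 10.69, 10.50, 10.54 and 10.51. Without the Oct4-negative array 4 members were lower. Immediate early genes, which respond within minutes to stimuli, gave 3 lower and 2 higher genes of 18 measured, against 8.21% and 9.42% of all measured genes. Their median difference was −0.11. It changed sign to 0.16 without the Oct4-negative array and to 0.11 without the EpCAM-negative array, and was −0.55 without the EpCAM+ array. Fos had levels of 8.37, 8.49, 7.01 and 5.79, Jun of 9.31, 8.75, 7.25 and 7.87 and Egr1 of 10.26, 10.09, 9.26 and 8.30, while the nuclear receptor gene Nr4a1 was higher with levels of 6.31, 5.30, 7.65 and 8.28. Without the Oct4+Klf4-negative array 8 members were lower.

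Of 24 measured Hox genes, the regulators of position along the embryo, 5 were lower and 0 higher (median difference −0.42), against 8.21% and 9.42% of all measured genes. The lower ones were all of groups 10 to 13: Hoxd10, Hoxa13, Hoxd13, Hoxa10 and Hoxa11, with Hoxd10 levels of 5.35, 5.57, 3.89 and 3.06 and Hoxa13 levels of 5.54, 4.70, 3.35 and 3.04. Other posterior genes were not called, Hoxc10 having a difference of 0.43 and Hoxd12 of −0.28. For many of the rest, such as Hoxb5 with levels of 4.03, 6.71, 4.86 and 3.71 and Hoxc8 with levels of 4.75, 6.56, 5.54 and 4.23, the Oct4+Klf4-negative array was the highest and the other 3 were closer together. Leaving that array out moved the median to 0.05, and leaving out the Oct4-negative array raised the lower count to 12.

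Cell cycle, oxidative phosphorylation and ribosomal protein genes had few called members or none. Of 28 measured cell cycle genes, 0 were called higher and 1 lower (median difference 0.23). The lower one was Ccnd2, cyclin D2, with levels of 11.38, 10.92, 10.17 and 9.66. Mki67, a proliferation marker, had levels of 10.45, 10.78, 10.81 and 10.75, and Ccne2, cyclin E2, the largest difference on the higher side, 0.87. None of 17 oxidative phosphorylation genes and none of 17 ribosomal protein genes was called, both with a median difference of −0.02, which turned to 0.02 and 0.01 when the arrays were centred on their medians. Of 15 measured glycolysis genes 3 were higher and 1 lower (median difference 0.06), against 17.6% of all measured genes called in either direction. Slc16a3, which exports lactate, had levels of 4.11, 4.49, 6.24 and 7.03, and Pfkp, the platelet phosphofructokinase, levels of 7.65, 7.95, 9.21 and 9.45, against Pfkm, the muscle form, with levels of 7.81, 8.28, 7.09 and 6.33. Hexokinase Hk2 had levels of 8.15, 9.20, 9.59 and 9.90. Of 22 genes of DNA methylation and chromatin, 2 were higher, Tet2 and the Polycomb methyltransferase gene Ezh1 (levels 5.70, 5.53, 6.66 and 6.82), and 1, Tet1, lower. Uhrf1, which guides maintenance methylation, had levels of 8.77, 8.98, 9.83 and 9.79, separated but short of 2-fold. Of 10 housekeeping genes only Tfrc, the transferrin receptor, was called, with levels of 9.22, 9.23, 10.17 and 10.44, and B2m, the light chain of MHC class I, had levels of 11.04, 10.98, 10.34 and 9.96.

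Of 15 measured neural markers, 5 were higher and 2 lower (median difference −0.46), against 9.42% and 8.21% of all measured genes. Stmn2, a microtubule regulator of axons, had levels of 5.24, 6.93, 11.17 and 10.98, Tubb3, a neuronal tubulin, levels of 4.83, 4.53, 8.84 and 9.71, and Elavl2, a neuronal RNA-binding protein, levels of 3.02, 8.54, 8.79 and 8.73. The first 2 left a gap of 4.05 and 4.00 between the pairs, whereas Elavl2 was low in the Oct4-negative array alone. Map2, a dendritic microtubule protein, was lower with levels of 8.64, 10.36, 8.43 and 8.18, as was Nes with levels of 8.66, 7.10, 6.33 and 5.95. Pax6, Dcx and Neurog2 did not reach the floor. The summed level of the 19 neural genes was 10.53 and 12.44 in the other pair and 12.44 and 12.25 in the Klf4-positive pair, so the pairs met on that sum. Without the Oct4+Klf4-negative array the neural median was 2.06, and without the Oct4-negative array it was −0.96.

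Of 12 endothelial markers 5 were measured, 3 higher and 1 lower (median difference 2.20, or 1.48 without the Oct4+Klf4-negative array). Cldn5 had levels of 3.21, 3.59, 6.81 and 7.37, Tek of 3.33, 7.49, 9.22 and 8.74 and Flt1 of 5.44, 3.99, 6.52 and 7.32. Egfl7 was the lower one, with levels of 7.55, 7.38, 5.90 and 6.52, while Pecam1, Cdh5 and Kdr were below the floor. Summed levels of the 12 markers were 8.89 and 8.99 in the other pair and 10.05 and 10.01 in the Klf4-positive pair. Of 12 macrophage and leukocyte markers 5 were measured (median difference 0.86, or 0.14 without the Oct4+Klf4-negative array and 1.66 without the Oct4-negative array) and 2 were higher, Laptm5 with levels of 3.81, 4.69, 9.50 and 8.38 and Coro1a with levels of 3.87, 4.45, 5.91 and 6.50. Ptprc, Csf1r, Adgre1, Itgam and Lyz2 were below the floor on all arrays, and summed levels were 8.41 and 7.49 against 9.91 and 9.26. Laptm5 alone, at 9.50 and 8.38, supplied most of the Klf4-positive sums, so they do not describe the list as a whole. The bright Laptm5 probe set is of a kind that can match further transcripts; 1 of another kind, under the floor, gave −0.19. Of 8 erythroid markers 2 were measured (median difference 2.71), and only Hbb-y was called. Gata1, Tal1, Hba-x and Hba-a1 were below the floor, and summed levels were 6.43 and 6.61 against 9.15 and 8.26. Hbb-y alone, at 8.95 and 7.86, supplied most of the erythroid sums in the Klf4-positive pair. Of 12 muscle markers 4 were measured, and the myosin light chain gene Myl4 was higher with levels of 4.48, 4.82, 6.04 and 7.23; Myog, Myf5 and Tnnt2 were below the floor. Of 11 endoderm and mesendoderm markers only Dab2 was measured, with a difference of 0.34. Of 11 cartilage, bone and adipocyte markers 6 were measured (median difference 0.19) and 1, Fabp4, was lower. The part of these lineages in the differences was not tested.

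In 36 measured genes the Klf4-positive mean was higher by 2-fold or more although the pairs overlapped, and in 69 it was lower. Serpini1, which encodes neuroserpin, had levels of 3.48, 8.32, 8.62 and 7.79, Tox3 of 2.46, 6.24, 7.01 and 6.17 and Reep1, which shapes the endoplasmic reticulum, of 3.56, 7.70, 8.14 and 7.47. All 3 were low in the Oct4-negative array alone and alike in the other 3. Prom2, a protein of membrane protrusions in epithelia, had levels of 3.48, 3.25, 3.45 and 7.08, high in the EpCAM+ array alone. Eps8l2, an actin regulator, had levels of 6.05, 3.79, 5.94 and 7.67, with the Oct4-negative and EpCAM-negative arrays level. On the lower side, the protease gene Pcsk5 had levels of 2.60, 7.45, 2.64 and 2.34, the synapse organizer gene Cbln2 of 3.14, 9.56, 4.79 and 3.23 and Nefm, a neurofilament, of 2.51, 7.97, 3.13 and 2.68. All 3 were far highest in the Oct4+Klf4-negative array, and their Oct4-negative levels lay within the range of the Klf4-positive ones or below it. Sorbs2, an adaptor of the actin cytoskeleton, was also highest in that array, with levels of 5.28, 8.06, 5.28 and 3.61. Col6a2, of collagen VI, was high in the Oct4-negative array alone, with levels of 8.88, 5.24, 4.81 and 5.26.

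**Figure D4:**
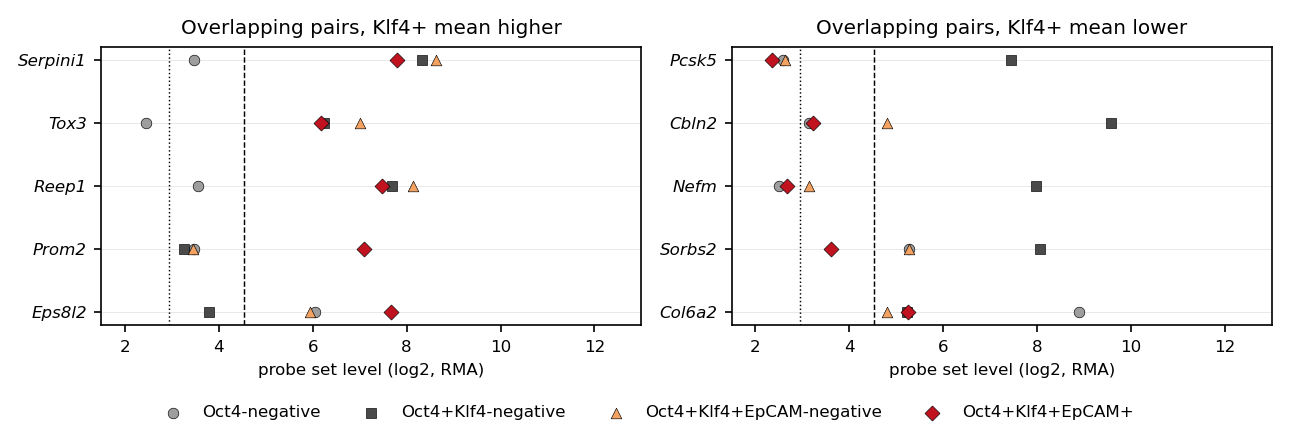
Levels (log2, x axis) of the 5 genes in each direction with the largest difference of pair means among those whose pairs overlap, 1 marker for each array; the dashed line is the floor (4.53) and the dotted line the background ceiling (2.94). Serpini1, Tox3 and Reep1 are low in the Oct4-negative array only, and Pcsk5, Cbln2 and Nefm are highest in the Oct4+Klf4-negative array.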

How the data were processed

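RNA of 4 sorted fractions was isolated with RecoverAll, turned into amplified cDNA (Ovation Pico WTA) and hybridised to Affymetrix arrays, per the labels' protocols. The values used are log2 probe set levels as deposited by the authors, made with RMA per the submitters' processing notes; the sources used here give no version of it. With 1 array per fraction the number of arrays limits the precision, and amplification before hybridisation can change levels. Of 45037 probe sets that are not controls, 34945 had 1 gene symbol in the platform annotation (932 had several), giving 18193 genes, each read by the probe set whose mean over the 4 arrays was highest. Genes were described in Python 3.11.15 with pandas 2.3.3, by the calling rule given in the report and with no test across samples. The calling code was checked on simulated data with small noise, which does not measure how often arrays of different gates give false calls. In a fold, levels of the dimmer pair under 2.94 were set to it. Promoter sequences are RefSeq's (GRCm38.p6). The members, the 35 gene lists and the tests were chosen with earlier results of these data known. Named genes are the 12 largest and the 8 largest steady genes in each direction, up to 4 called members of a list in each direction, and the 5 largest overlapping genes; list members that were not called are named for contrast, after their values were seen. Alternatives covered how probe sets are joined, the floor, centring, the size rule and leaving out each array.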

Additional observations from a re-analysis of the deposited data

Results flagged for a closer look

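Probe sets without a single gene symbol also separated the pairs. Of 10092 such probe sets outside the gene descriptions above, 3682 reached the floor, and by the same rule 208 of them (5.65%) were higher in both Klf4-positive arrays and 359 (9.75%) were lower. They were singled out because they lie outside the named genes, of which 9.42% and 8.21% were called. They are probe sets and not genes, several may read 1 transcript, and the difference between these shares was not tested.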

How the results depend on the processing

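Most alternatives keep the probe set of each gene, so they could not turn the direction of a call. The 2 that change the probe sets are the mean of all probe sets and the omission of those that can read several transcripts. Under these, no gene called in the main setting was called in the opposite direction (0 of 1076 and 0 of 938). The mean kept the call of 910 higher and 758 lower genes, and the omission that of 919 and 807. A floor at the 75th percentile gave 670 higher and 593 lower genes, a gap of at least 1 (log2) between the pairs gave 643 and 429, and no minimum difference gave 4264 and 3241. Leaving out 1 array at a time gave 920 to 1295 higher and 823 to 1134 lower genes, with the fewest without the EpCAM+ array; the pair then holds 1 array. Without it, 855 of the 1076 higher and 764 of the 938 lower genes kept their call. Centring the arrays gave 1134 and 898. Differences that changed sign were those of Cbln2 (0.86, against −5.55 without the Oct4-negative array) and Nefm (0.40, against −5.06) without the Oct4+Klf4-negative array, Serpini1 (−0.12 without the Oct4-negative array, against 4.73 without the Oct4+Klf4-negative one), and Fabp4 (0.06) and Laptm5 (−0.19) when probe sets that can read several transcripts were left out, which replaces the bright probe sets of the last 2 by ones below the floor. Among lists, the neural median went from −0.46 to 0.38 and the macrophage median from 0.86 to −0.12 when those probe sets were left out, the ErbB median from 0.84 to −0.40 with the mean of all probe sets, and the median of cartilage, bone and adipocyte markers from 0.19 to −1.94 with the floor at the 75th percentile; the cause was not tested. Medians of the interferon, muscle, endoderm, glycolysis, oxidative phosphorylation, ribosomal and housekeeping lists, between −0.03 and 0.34, also changed sign under at least 1 alternative. No paired analysis was possible because each fraction has 1 array. Levels at or under 2.94 cannot be ordered, so folds against them are lower bounds.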

Other observations

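Receptors and ligands of the ErbB family, which carry epidermal growth factor signals, differed in both directions. Of 7 measured members 3 were higher and 2 lower (median difference 0.84). Erbb3, the kinase-poor partner receptor, had levels of 4.63, 5.27, 8.43 and 9.86, and Egfr, the receptor for epidermal growth factor, levels of 7.81, 5.92, 8.62 and 8.71. Both receptors were higher in each Klf4-positive array. The ligand gene Btc, betacellulin, was also higher, with levels of 2.76, 2.98, 5.0 and 4.63. Nrg1, a neuregulin that binds Erbb3, and Hbegf, a ligand of Egfr, were lower with levels of 5.18, 3.95, 2.57 and 2.73 and of 7.4, 5.25, 4.27 and 4.98. Ereg, epiregulin, was high in the Oct4-negative array alone, with levels of 6.62, 2.77, 2.82 and 2.77, and without that array 0 members were lower.

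Of 7 measured interferon response genes, 2 were higher and 1 lower (median difference 0.00). Rsad2, the antiviral enzyme viperin, had levels of 3.51, 3.86, 5.80 and 5.78, and Oas1a, an oligoadenylate synthetase, levels of 3.67, 3.96, 5.23 and 5.76. Ifit2, an interferon-induced RNA-binding protein, went the other way with levels of 7.33, 6.54, 3.81 and 3.44. Mx1, Usp18 and Irf7 were below the floor on all 4 arrays, and Ifi35 had levels of 9.55, 9.49, 9.47 and 9.57.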
